A study of Prunus avium with 18 samples.

Results

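Among the 48133 annotated genes of sweet cherry (Prunus avium), 200 are described here because their transcripts in flower buds stood highest on October 17 and stayed far lower at each later sampling. They were chosen on expression in CPM, the raw count of a gene divided by the total of its library and scaled to a library of 1000000 counts. The 16955 genes that averaged at least 5 CPM on October 17 were ranked by the ratio of that mean to the highest mean of the 5 later dates, after 0.5 CPM was added to both, and the first 200 were kept (1.18% of the genes ranked). That October 17 exceeded the later dates is therefore what chose the members, and it is given as a description, with no test. The comparisons among the later dates were tested, because the choice held all later levels low without using which later date was higher than another.

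The data are RNA-seq libraries of whole flower buds of the late flowering cultivar 'Fertard', with 3 biological replicates at each of 6 dates (18 libraries). The dates were October 17, December, January 3, January 15, February 12 and March 12 of the winter of 2017 to 2018. In the terms of the study October 17 marks dormancy onset, the next 4 dates fall in endodormancy, when the bud itself blocks growth, and March 12 falls in ecodormancy, when the environment holds growth back. The forcing test of the study, which counts the buds that break in warmth, nevertheless placed dormancy release of that winter after the last sampling, so the stage of March 12 is a label and not a measured release. The sample labels of the December libraries carry December 17, 2012, whereas the design gives December 8, so that date is called December here. All groups share 1 cultivar, 1 winter and no treatment, and a replicate is independent buds from 1 of 3 trees. Whole buds hold scales, young flowers and vascular tissue, so in every result fewer cells of a type and less RNA per cell cannot be told apart. Apart from the study's xylem formation genes, which stand for vascular cells below, marker genes of flower bud tissues were not looked up. The identifiers of most genes carry no name in the sources used here.

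Bud dormancy is the state in which perennial plants of cold winters suspend visible growth, and it is entered in autumn. Growth and its arrest involve the cell wall: cellulose synthases are membrane enzymes that spin cellulose into the wall, with separate subunits in Arabidopsis for the primary wall of expanding cells and the secondary wall of xylem and fibres. Beta glucosidases of family GH1 split glucose from small molecules, and in Prunus species some of them release cyanide from the cyanogenic glucosides prunasin and amygdalin.

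Total counts lay between 10095600 and 21023379 per library, and the 10 most counted genes held 2.41% to 7.97% of them. Pairs of replicates were further apart than counting error alone would put them, their chi-square over genes being 1.85 to 22.4 times its degrees of freedom. The members' later levels rest on few reads in part: over the 15 later libraries together a member had between 10 and 114131 counts (median 523.5), and 35 members had at least 1 library at 0. Counting cannot separate a level of 0 from one of up to 3 counts, which over the 3 libraries of a date is between 0.0625 and 0.0899 CPM. That level is called the floor of the date. A mean given as a multiple of a floor leaves out its own counting error, so the multiple is not a lower limit.

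The members took 1.28% ± 0.0268 of all counts on October 17 (SD, n = 3). Their summed share was 0.294% in December, 0.202% on January 3, 0.216% on January 15, 0.166% on February 12 and 0.262% on March 12. A single gene, PAV04g0186651, held 23.3% of the members' counts on October 17. Without it the share was 0.982% on October 17 and between 0.140% and 0.210% at the later dates. Every member was chosen for an October 17 mean above that of each later date. The summed share therefore had to drop with or without that gene.

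The ratio that chose the members ran from 24.7 down to 2.28, with a median of 3.33, and it was over 10 for 10 members, over 5 for 40 and under 3 for 74. Mean levels on October 17 ran from 5.0 to 2992 CPM (median 20.5 CPM). In all 200 members the lowest October library lay above the highest of the 15 later libraries, which was so for 8.63% of the genes ranked; since the ratio selects for this, nothing is read from it. The lowest October library was between 1.46 and 22.9 times the highest later library (median 2.71). The October libraries themselves were close to each other, with a median coefficient of variation of 9.43% over members and 5.97% over all genes ranked. Replicate 1 was the highest October library for 66 members, replicate 2 for 82 and replicate 3 for 52. The October libraries chose the members, so nothing is read from this split.

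Relative to October 17, the median member stood at 16.8% of its October mean in December, 11.3% on January 3, 13.4% on January 15, 7.08% on February 12 and 16.9% on March 12. The median gene among all those ranked stood between 95.4% and 100.2% at the same dates. By December 55 members were already under 10% of their October mean, and on February 12 this held for 113 members, 23 of them under 1%. Only 34 members kept a mean over 5 CPM at every later date, while 13 stayed under 1 CPM at all of them.

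**Figure D1:**
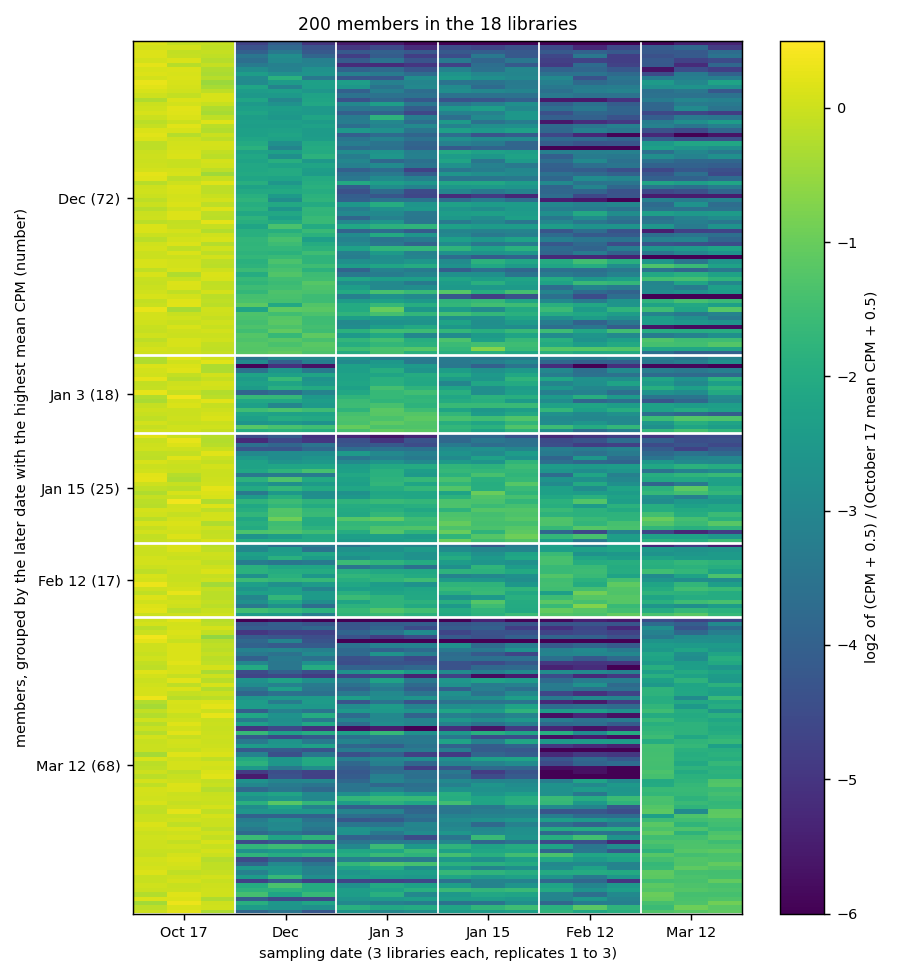
Each row is 1 of the 200 members and each column 1 of the 18 libraries, in order of date, and the colour is the log2 of CPM + 0.5 over the October 17 mean + 0.5. Rows are grouped by the later date with the highest mean; the darkest fields lie on February 12 among the 68 members whose highest later date was March 12.

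The members did not share 1 course after October 17. The highest later mean fell in December for 72 members (36.0%, against 13.0% of all genes ranked) and on March 12 for 68 (34.0%, against 32.3%). The other 60 members split into 18 that were highest on January 3 (9.0%, against 23.0%), 25 on January 15 (12.5%, against 15.0%) and 17 on February 12 (8.5%, against 16.6%). The lowest mean fell on February 12 for 73 members (36.5%, against 19.1% of all genes ranked). The 72 members with their highest later level in December stood lower afterwards, with a median of 21.3% of October in December, 7.89% on January 3, 11.5% on January 15, 5.54% on February 12 and 6.64% on March 12. The 68 members with their highest later level on March 12 were low throughout the winter, with medians between 4.38% and 9.07% of October up to February 12, and stood at 29.8% on March 12. A mean that was lower at each step in turn was found for 8 members (4.0%, against 2.08% of the genes ranked), and one that was higher at each step for 4 (2.0%, against 2.67%). These groups were formed from the means themselves and are a description.

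**Figure D2:**
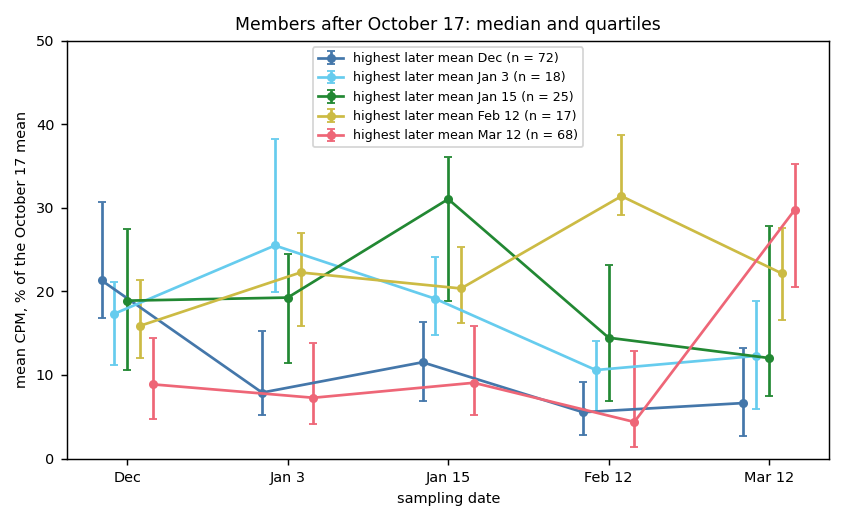
Members grouped by the later date with the highest mean, with the mean CPM of each later date as a percentage of the October 17 mean on the vertical axis (points are medians over the members, bars the quartiles). The 2 large groups, December (72 members) and March 12 (68 members), both have their lowest median on February 12.

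The named annotation covers few of the members. The study's candidate table names 7 of the 200. The copy of its gene ontology (GO) terms used here was cut short, with rows for 1998 genes on unplaced contigs, and covers 5 others. The remaining 188 have neither and are given by identifier alone. The study may hold GO terms for them that were not available here. The named ones are 5 cellulose synthases and 2 beta glucosidases.

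Among the families named in the candidate table, cellulose synthases held the most members. Of 80 genes with such a name 37 averaged at least 5 CPM on October 17, and 5 of these are members, against 2 of 27 beta glucosidases. None of 24 glycosyl hydrolases of family GH17, 12 pectinesterases or their inhibitors, 12 aquaporins, 20 callose synthases, 12 xylem formation genes, 10 GH-like genes or 8 GH9 genes that reached the same level is a member. The members are 1.18% of all genes ranked. In lists this small, holding none is near that share, so it is no result about these families. The xylem formation genes also stand for vascular cells. Of the 18 genes of this list tested, 3 were called higher on January 3 than in December (6.33% of all genes tested were) and 2 lower (4.05%). On March 12 against February 12, 4 were higher (14.7% of all genes tested) and 1 lower (9.66%). With so few genes, nothing is read from these counts.

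CELLULOSE SYNTHASE A4_3 (PAV08g0395591, chromosome 8) is named after CESA4, a subunit that in Arabidopsis makes the cellulose of secondary walls. It had 41.1, 48.2 and 48.5 CPM in the 3 libraries of October 17. It then had 11, 3.85 and 11.3 CPM in December, 2.52, 2.47 and 2.82 CPM on January 3, 1.8, 2.85 and 2.97 CPM on January 15, 0.616, 0.795 and 0.193 CPM on February 12 and 11.7, 8.65 and 7.13 CPM on March 12. Replicate 2 of December was low beside the other 2 libraries of that date, and the February libraries lay below all others. It was lower on January 3 than in December (log2 fold change -1.76 ± 0.33 (SE), adjusted p = 4.51e-04, edgeR quasi-likelihood test) and lower on February 12 than on January 15 (log2 fold change -2.15 ± 0.49 (SE), adjusted p = 0.00205). On March 12 it was higher than on February 12 (log2 fold change 4.0 ± 0.43 (SE), adjusted p = 4.12e-07), and its March and December libraries overlapped (log2 fold change -0.01, adjusted p = 0.986).

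The next gene on the chromosome, CELLULOSE SYNTHASE A4_2 (PAV08g0395601), carries the name of the same subunit. It had 32.9, 42.4 and 43.2 CPM on October 17, 6.99, 3.58 and 6.88 CPM in December, 1.48, 3.00 and 1.45 CPM on January 3, 2.9, 2.9 and 3.06 CPM on January 15, 0.555, 0.353 and 0.87 CPM on February 12 and 9.77, 8.92 and 8.82 CPM on March 12. The February libraries were again the lowest and the March libraries the highest after October. The steps called were the same ones: January 3 against December (log2 fold change -1.57 ± 0.28 (SE), adjusted p = 2.60e-04), February 12 against January 15 (log2 fold change -2.29 ± 0.37 (SE), adjusted p = 1.00e-04) and March 12 against February 12 (log2 fold change 3.92 ± 0.34 (SE), adjusted p = 2.05e-08). Reads that align to both copies could have been left out or split in counting, so the level of each alone is uncertain.

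On chromosome 7 a second pair of neighbours is made of CELLULOSE SYNTHASE-like_3_1 (PAV07g0358471) and CELLULOSE SYNTHASE 5_1 (PAV07g0358461). The first had 47.8, 55 and 53.6 CPM on October 17, 8.9, 4.59 and 7.06 CPM in December, 2.65, 3.24 and 1.37 CPM on January 3, 2.12, 3.42 and 3.15 CPM on January 15, 0.493, 0.53 and 0.0967 CPM on February 12 and 18.5, 14.5 and 14 CPM on March 12. All March libraries exceeded all winter libraries. It was higher on March 12 than on February 12 (log2 fold change 5.25 ± 0.37 (SE), adjusted p = 1.92e-09) and than in December (log2 fold change 1.11 ± 0.24 (SE), adjusted p = 7.68e-04). The log2 fold change against December came to 0.89 without replicate 2 of December and 0.91 without replicate 1 of March, under the threshold.

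CELLULOSE SYNTHASE 5_1 was among the last members inside the choice, at rank 198. It had 4.95, 8.49 and 6.85 CPM on October 17, 1.4, 0.734 and 1.09 CPM in December, 0.431, 0.308 and 0.257 CPM on January 3, 0.129, 0.143 and 0.524 CPM on January 15, 0, 0.265 and 0.29 CPM on February 12 and 2.22, 2.43 and 3.37 CPM on March 12. Its March libraries, too, lay above all winter libraries (log2 fold change 3.93 ± 0.56 (SE), adjusted p = 1.08e-05, against February 12).

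The fifth, CELLULOSE SYNTHASE-like_5_2 (PAV04g0193021, chromosome 4), had 22.9, 33.8 and 32.5 CPM on October 17, 2.99, 0.917 and 2.26 CPM in December, 0.923, 1.39 and 0.599 CPM on January 3, 0.515, 1.57 and 1.31 CPM on January 15, 0.308, 0.53 and 0.484 CPM on February 12 and 10.6, 7.3 and 7.83 CPM on March 12. The March libraries again lay above every library of the winter. It was higher on March 12 than on February 12 (log2 fold change 4.27 ± 0.44 (SE), adjusted p = 1.98e-07) and than in December (log2 fold change 1.95 ± 0.33 (SE), adjusted p = 6.83e-05). Its lower level on January 3 than in December only just passed (log2 fold change -1.11 ± 0.43 (SE), adjusted p = 0.0492) and was lost in 11 of the 18 fits without 1 library, with the replicate block and in the fit of the later dates alone.

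All 5 were thus called higher on March 12 than on February 12 (14.7% of all genes tested were) and lower on January 3 than in December (4.05%), 3 were called lower on February 12 than on January 15 (3.90%), and 3 higher on March 12 than in December (20.0%). The January 3 call of CELLULOSE SYNTHASE 5_1 was lost without replicate 1 of December or replicate 2 or 3 of January 3, and its call against December without replicate 2 of December or replicate 3 of March. On March 12 against February 12, 9 of the 54 other cellulose synthases tested were called higher (14.7% of all genes) and 8 lower (9.66%). For January 3 against December, 6 of them were higher (6.33% of all genes tested) and 2 lower (4.05%). On February 12 against January 15, 8 of them were higher (7.10%) and 3 lower (3.90%). For March 12 against December, 14 were higher (20.0%) and 7 lower (7.0%). Whether these counts differ from the shares of all genes was not tested. As 1 example of a gene that is no member, CELLULOSE SYNTHASE A2_1 averaged 796 CPM on October 17, 202 CPM on February 12 and 625 CPM on March 12. The choice left out ranked genes that kept more of their October level, so nothing is read from this example. The difference between the 5 members and the rest of the family was not tested, since the members were picked from it by level.

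Xylan is 1 of the wall components beside cellulose in woody tissue. The member 000329F_QUIVER_OBJg0438241, on an unplaced contig, carries GO terms of a Golgi glucuronoxylan methyltransferase, an enzyme that decorates xylan, and of secondary wall formation. It had 14, 17 and 13.8 CPM on October 17, 5.47, 5.32 and 4.8 CPM in December, 2.34, 2.62 and 2.22 CPM on January 3, 3.99, 4.38 and 2.88 CPM on January 15, 1.54, 1.06 and 1.93 CPM on February 12 and 4.02, 5.32 and 4.66 CPM on March 12. February was the lowest date and the December and March libraries overlapped. It was lower on January 3 than in December (log2 fold change -1.11 ± 0.20 (SE), adjusted p = 2.48e-04), lower on February 12 than on January 15 (log2 fold change -1.30 ± 0.21 (SE), adjusted p = 1.11e-04) and higher on March 12 than on February 12 (log2 fold change 1.58 ± 0.22 (SE), adjusted p = 6.08e-06).

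**Figure D3:**
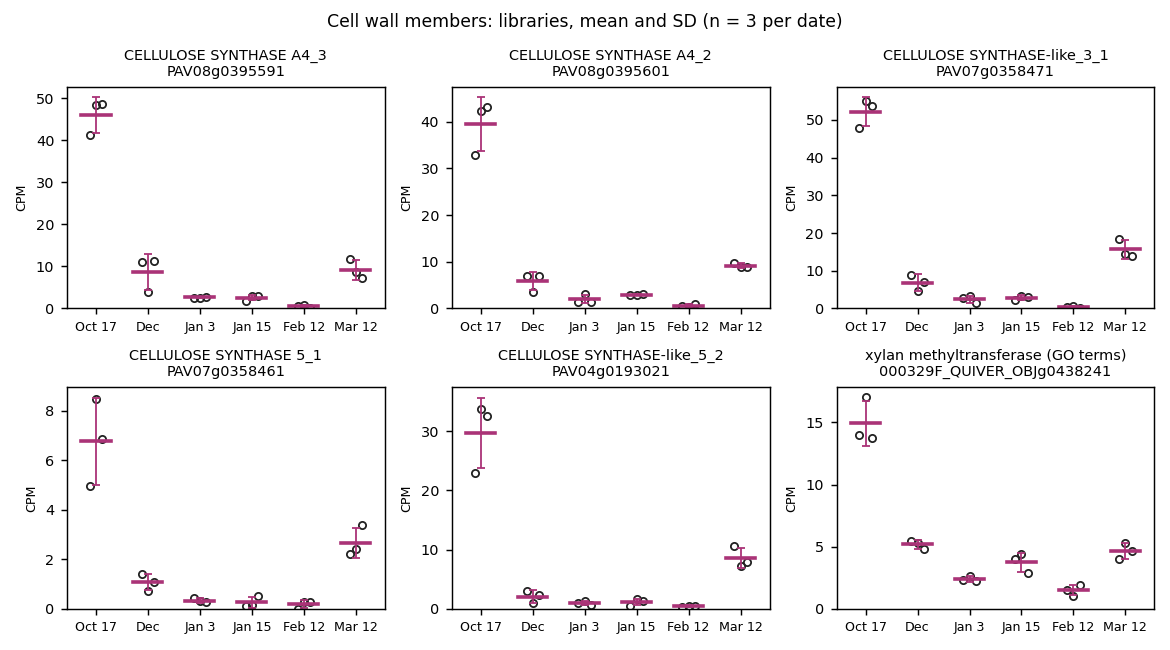
CPM on a linear axis for the 5 cellulose synthases and the member with xylan methyltransferase GO terms, by date (circles are libraries in the order of replicates 1 to 3, lines the mean and its SD, n = 3). October 17 stands above all later dates in each panel, and February 12 has the lowest mean in all 6.

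The 2 beta glucosidases, also neighbours on chromosome 7, were close to absent after October 17. Beta glucosidase 6_2 (PAV07g0336641) had 9.63, 7.98 and 8.1 CPM on October 17, and over the 15 later libraries it had no more than 4 counts in any. Beta glucosidase 36_17 (PAV07g0336631), which the study's table also describes as a cyanogenic beta glucosidase, had 9.63, 9.57 and 8.23 CPM on October 17. It had 1 count in all in December, 2 on January 3, 1 on January 15, 0 on February 12 and 12 on March 12. The March level was 4.75 times the floor of February 12, but 8 of the 12 counts were in replicate 3. Both genes reached the filter on low counts only through October 17, so no test among the later dates is given for them. Next along the chromosome, 2 beta glucosidases that are no members, 36_18 and 36_19, shared the low level in December and then stood at 68.0 and 18.1 CPM on January 15. The choice of members kept genes with low later levels, so nothing is read from this difference.

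Of the other members with GO terms, 000026F_QUIVER_SUBSEQ_1-137920_OBJg0414501 and 000315F_QUIVER_OBJg0436281 carry the same set, that of a membrane heme monooxygenase. The first had 51, 50.7 and 44.6 CPM on October 17 and between 0.795 and 3.12 CPM in the later libraries, and the second had 5.89, 8.29 and 7.27 CPM and between 0.18 and 0.739 CPM. Neither was called in any comparison among the later dates. Their lowest adjusted p, of the first gene on January 3 against December, was 0.0264 with a log2 fold change of -0.91, and a call also needs a change of more than 1. The member 000169F_QUIVER_OBJg0424281 carries the terms of a triglyceride lipase, which frees fatty acids from storage fat. Its October 17 libraries held 43.8, 47.5 and 38.1 CPM. It was called higher on March 12, with 8.78, 5.59 and 11 CPM, than on February 12, with 3.08, 1.86 and 2.71 CPM (log2 fold change 1.67 ± 0.24 (SE), adjusted p = 1.03e-05). The last, 000101F_QUIVER_SUBSEQ_767149-1002860_OBJg0418901, annotated as protein binding, had 5.23, 6.89 and 4.98 CPM on October 17, 0.634 to 2.83 CPM later and no call.

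The levels of the members were then compared among the 5 later dates. The test was edgeR's quasi-likelihood F test over all 26248 genes that passed the filter on low counts, which included all 200 members. Beta glucosidases 6_2 and 36_17 and PAV05g0242091 passed that filter only through their October libraries. They account for 1 of the members counted lower on January 3 than in December, 1 of those higher on March 12 than on February 12, and 1 higher and 1 lower on March 12 than in December. In a fit of the later dates alone, which tested the other 197, 62 members were lower on January 3 than in December, 69 lower on February 12 than on January 15 and 70 higher on March 12 than on February 12. A call required both a Benjamini-Hochberg adjusted p below 0.05 and a change of more than 1 on the log2 scale in either direction. A level that differed somewhere among the 5 later dates (adjusted p alone) was found for 186 members (93.0%), against 83.0% of all genes tested and 91.5% of the genes ranked. The members' share is near the second of these, so it is no result about the members.

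January 3 was lower than December for many members. Of the 200, 66 were called lower (33.0%, against 4.05% of all genes tested and 3.49% of the genes ranked) and 23 higher (11.5%, against 6.33% and 3.75%), and the median log2 fold change was -0.38, against 0.07 over all genes. Replicate 2 was the highest January 3 library for 116 members, and without it the median was -0.57 and 71 members were called lower. Without replicate 1 of January 3 the median was -0.37 and 58 members were called lower. Without replicate 3 of January 3 the median was -0.32, again with 58 lower. The largest falls were in genes that came close to 0. PAV05g0242091, one of the 3 genes that reached the filter only through October 17, had no count in any January 3 library, and its test is not given. In December it had 0.509, 0.55 and 0.725 CPM, with a mean 8.11 times the floor of January 3. PAV02g0101131 had 1 count in all on January 3, against 1.34, 1.56 and 1.63 CPM in December, and was lower (adjusted p = 4.07e-04), with a December level 60.8 times that of January 3 and a counting interval of 10.5 to 2445 times. In the other direction PAV04g0217181 had 0.554, 0.848 and 1.71 CPM on January 3, against 0, 0.0917 and 0.0906 CPM in December, and was called higher (adjusted p = 1.42e-04). The December value rests on 2 counts, and the ratio of 18.4 has a counting interval of 4.77 to 157. PAV06g0264591 had 5 counts in all on January 3, with a mean 1.55 times the floor of December, and none in December. Its call (0.0369 for the adjusted p) was lost with DESeq2 and in the fit of the later dates alone. It was also lost in 5 of the 18 fits without 1 library, each a library of December or January 3.

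The 2 January dates were closer to each other. On January 15, 22 members were higher than on January 3 (11.0%, against 2.91% of all genes tested and 2.31% of the genes ranked) and 7 were lower (3.50%, against 1.49% and 0.896%), and the median log2 fold change was 0.15, against -0.02 over all genes, with 0.25 when replicate 2 of January 3 was left out and 0.09 when replicate 3 was. Without replicate 1 of January 15 the number lower was 15. PAV07g0332471, which has the fourth highest ratio, had 2.51, 2.62 and 1.66 CPM on January 15, against 0.616, 0.385 and 0.599 CPM on January 3, with no overlap (log2 fold change 2.03 ± 0.31 (SE), adjusted p = 1.54e-04). The 2 largest rises were from almost nothing: PAV02g0101131 had 29 counts in all on January 15 against 1 on January 3, and PAV03g0174061 had 17 against 2. Both calls (adjusted p = 0.0178 for the first and 0.00836 for the second) were lost without replicate 2 of January 3. The first was also lost without replicate 1 of January 3 or replicate 2 of January 15, and the second without replicate 3 of January 15. The largest falls were of PAV04g0217181, with 0.129, 0.285 and 0.262 CPM on January 15 after its January 3 level above (log2 fold change -2.14 ± 0.47 (SE), adjusted p = 0.00279), and of PAV06g0276331, with 0.451, 0.19 and 0 CPM on January 15, against 0.431, 1.46 and 0.856 CPM on January 3 (log2 fold change -1.99 ± 0.56 (SE), adjusted p = 0.0149). The call of PAV06g0276331 was lost without replicate 2 of January 3 or replicate 2 of January 15.

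February 12 had the lowest median level of the members. Of the 200, 72 were lower than on January 15 (36.0%, against 3.90% of all genes tested and 3.25% of the genes ranked) and 6 were higher (3.00%, against 7.10% and 4.2%), with a median log2 fold change of -0.68, against 0.01 over all genes. The number lower stayed between 64 and 76 when any 1 library was left out. PAV06g0276841 had 2 counts in all on February 12, against 2.38, 2.05 and 2.53 CPM on January 15, and PAV06g0269841 had 1 count, against 2.00, 0.713 and 0.699 CPM. Both were called lower: the January 15 level was 43.0 times that of February 12 for the first (counting interval 11.6 to 360 times, adjusted p = 5.37e-06) and 42.6 times for the second (7.33 to 1714 times, adjusted p = 5.96e-05). Neither is annotated. The 2 largest rises were small in CPM: PAV05g0242071 had 1.29, 0.442 and 0.677 CPM on February 12, against 0.129, 0.285 and 0.0874 CPM on January 15 (log2 fold change 2.17 ± 0.50 (SE), adjusted p = 0.00276), and PAV06g0276331 had 0.986, 1.06 and 1.06 CPM, against 0.451, 0.19 and 0 CPM (log2 fold change 2.16 ± 0.56 (SE), adjusted p = 0.00481).

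On March 12 many members stood higher again, though all below October. Of the 200, 72 were higher than on February 12 (36.0%, against 14.7% of all genes tested and 10% of the genes ranked) and 22 were lower (11.0%, against 9.66% and 6.87%), with a median log2 fold change of 0.53, against 0.00 over all genes. February 12 enters both this comparison and the one before it, so a low February level moves both, and each gene's own values are the ones to read. PAV06g0269841 had 8.62, 5.77 and 7.23 CPM on March 12 against 1 count in all on February 12, a ratio of 275 with a counting interval of 48.8 to 10891 (2.75e-09 for the adjusted p). PAV06g0276841 had 6.07, 5.95 and 6.74 CPM against 2 counts, a ratio of 118 with an interval of 32.3 to 981 (1.26e-08 for the adjusted p). In PAV06g0269841 every March library lay above every winter library, while in PAV06g0276841 the March libraries overlapped with those of December, which held 5.4, 3.58 and 6.07 CPM. The largest falls were of 2 genes close to each other on chromosome 5. PAV05g0242071 had no count on March 12, and its February 12 mean was 8.95 times the floor of March 12 (adjusted p = 5.10e-05). PAV05g0241961 had 0.0821, 0.27 and 0 CPM on March 12, against 3.95, 2.12 and 4.06 CPM on February 12 (log2 fold change -4.75 ± 0.55 (SE), adjusted p = 8.86e-07).

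March 12 against December compares the end of the sampled winter with its start. Of the 200 members 62 were lower on March 12 (31.0%, against 7.0% of all genes tested and 6.69% of the genes ranked) and 51 higher (25.5%, against 20.0% and 12.9%), with a median log2 fold change of -0.10, against 0.07 over all genes. Leaving out 1 library moved that median to between -0.20 (without replicate 1 of March) and -0.05 (without replicate 2 of December or of March). PAV06g0264591 had 1.07, 2.61 and 3.07 CPM on March 12, with a mean 28.3 times the floor of December, and no count in December (adjusted p = 4.47e-07). PAV05g0254501 had 2.63, 1.44 and 2.18 CPM on March 12 against 1 count in all in December, a ratio of 79.0 with a counting interval of 13.7 to 3164 (adjusted p = 5.59e-07). The 2 largest falls were of PAV05g0242071 and PAV01g0075151. PAV05g0242071 had no count on March 12, against 5.6, 3.67 and 5.89 CPM in December (adjusted p = 1.38e-08). Its December mean was 56.2 times the floor of March 12. PAV01g0075151 had 291, 290 and 305 CPM on October 17, 91.1, 95.3 and 85.8 CPM in December, 30.8, 41.4 and 35 CPM on January 3, 22.8, 16.7 and 18.7 CPM on January 15, 7.46, 7.33 and 6.67 CPM on February 12 and 0.903, 0.45 and 0.991 CPM on March 12. Its mean was lower at each date than at the one before, no 2 of its dates overlapped, and it was lower on March 12 than in December (log2 fold change -6.91 ± 0.18 (SE), adjusted p = 3.72e-15).

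**Figure D4:**
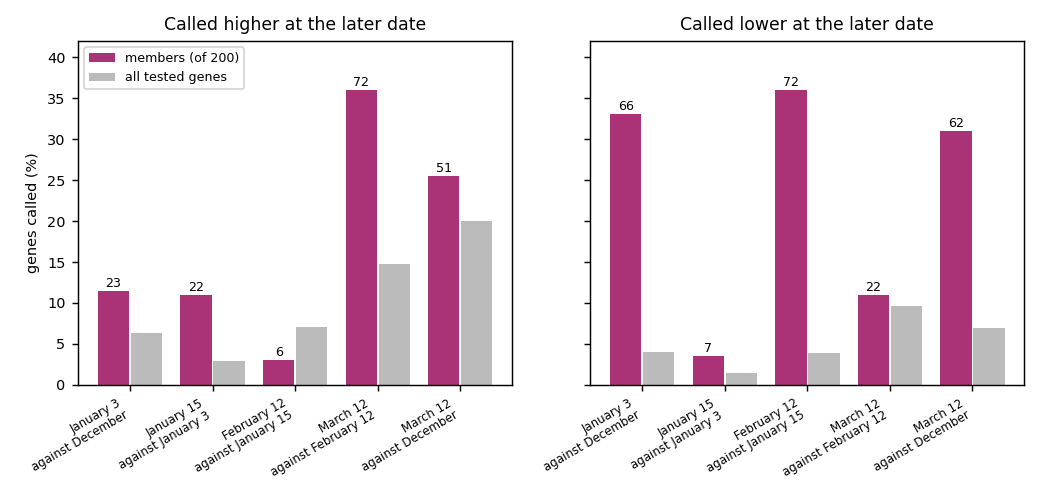
Percentage of genes called higher (left) and lower (right) at the later date of each comparison, for the 200 members (purple, with the number called above the bar) and for all 26248 genes tested (grey). The gap between the members and all genes is widest for genes lower on January 3 than in December (66), lower on February 12 than on January 15 (72) and lower on March 12 than in December (62).

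Over the 4 steps between consecutive later dates, 47 members (23.5%, against 65.8% of all genes tested) were called at none. At 1 step 59 were called (29.5%, against 21.7%), at 2 steps 52 (26.0%, against 9.33%) and at 3 steps 41 (20.5%, against 2.95%). At all 4 steps 1 member was called (0.5%, against 0.236%).

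The 5 members with the highest ratio were PAV03g0141981 (24.7), PAV04g0212701 (23.5), 000026F_QUIVER_SUBSEQ_1-137920_OBJg0414501 (17.5), PAV07g0332471 (16.0) and beta glucosidase 6_2 (14.1). PAV03g0141981 had 81.7, 92.4 and 71.3 CPM on October 17, 0.445, 0.917 and 0.181 CPM in December, 0.185, 0.385 and 0.171 CPM on January 3, 0.708, 1.47 and 0.874 CPM on January 15, 0.925, 1.41 and 1.26 CPM on February 12 and 3.12, 2.52 and 2.87 CPM on March 12. Its lowest mean was that of January 3 and it was higher again on January 15 (log2 fold change 2.02 ± 0.46 (SE), adjusted p = 0.0037). PAV04g0212701 had 52.8, 45.7 and 45.9 CPM on October 17, 1.34, 2.39 and 0.996 CPM in December, 0.554, 0.539 and 0.342 CPM on January 3, 0.129, 0.238 and 0.262 CPM on January 15, 0, 0 and 0.193 CPM on February 12 and 0.328, 0.631 and 0.693 CPM on March 12. Its mean was lower at each date up to February 12, when its 3 libraries held 2 counts in all.

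The 3 members with the highest October level held their rank with much smaller ratios. PAV04g0186651 had 3042, 2893 and 3040 CPM on October 17, 1106, 1338 and 1051 CPM in December, 387, 463 and 473 CPM on January 3, 639, 434 and 546 CPM on January 15, 309, 196 and 284 CPM on February 12 and 561, 507 and 471 CPM on March 12. With at least 2214 counts in every library, it was lower on January 3 than in December (log2 fold change -1.39 ± 0.14 (SE), adjusted p = 1.08e-06). PAV04g0189651 averaged 651 ± 20.9 CPM on October 17 (SD, n = 3) and lay between 95.3 and 247 CPM later, the highest being replicate 1 of February 12, with no call among the later dates. PAV01g0046551 averaged 486 ± 44.7 CPM on October 17 and regained level over the winter, with 191, 194 and 157 CPM on March 12, against 46.2, 64.8 and 43.6 CPM in December (log2 fold change 1.75 ± 0.13 (SE), adjusted p = 4.01e-09).

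In 3 members 1 library weighed most on October 17. PAV06g0273921 had 25.7, 21.3 and 13.1 CPM, PAV04g0202931 5.05, 7.85 and 5.33 CPM and PAV03g0182781 8.88, 13 and 8.23 CPM there. Replicate 2 was far above the other October libraries in PAV04g0202931 and PAV03g0182781, and replicate 3 far below them in PAV06g0273921. Even so the lowest October library was 5.31, 3.12 and 2.12 times the highest later library in the 3 genes, taken in the order above.

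**Figure D5:**
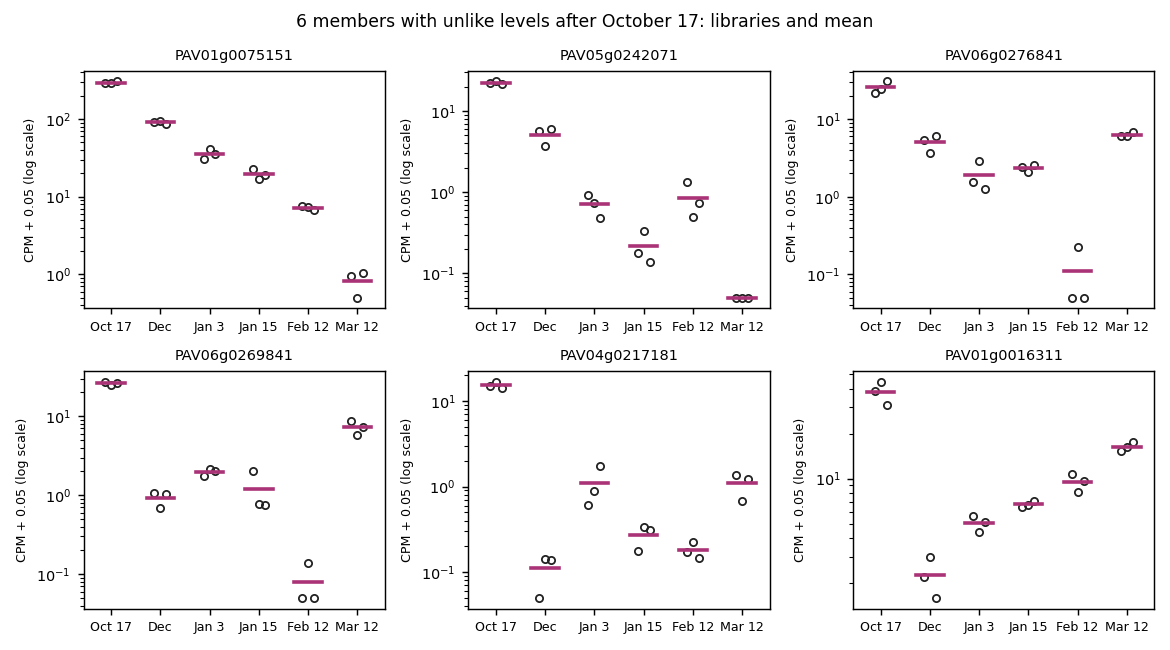
CPM + 0.05 on a log axis for 6 members, by date (circles are libraries in the order of replicates 1 to 3, lines the mean). PAV01g0075151 had a lower mean at each date, PAV05g0242071 had no count on March 12, PAV06g0276841 and PAV06g0269841 nearly vanished on February 12, PAV04g0217181 was low in December, on January 15 and on February 12, and PAV01g0016311 regained level from December on.

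The members lay on all 8 chromosomes, between 14 on chromosome 3 and 40 on chromosome 1, with 10 on unplaced contigs, and made up between 0.794% (chromosome 3) and 1.46% (chromosome 2) of the genes ranked there. Counted in the order of the identifiers, 40 members (20.0%) formed 20 pairs of direct neighbours, 13 of which shared the later date of the highest mean, and no run was longer than 2. The matching shares over all genes ranked are not given here, so nothing is read from these counts. Besides the enzyme pairs above, PAV04g0189651, the member with the second highest October level, stood beside PAV04g0189661 (651 and 350 CPM on October 17, both highest later on February 12). PAV06g0269841, which nearly vanished on February 12, stood beside PAV06g0269851 (26.2 and 57.7 CPM, both highest later on March 12).

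A looser group on chromosome 5, picked out after its values were seen, held 4 members among 14 consecutive annotated genes, of which only 5 reached 5 CPM on October 17. They are PAV05g0241961, PAV05g0242041, PAV05g0242071 and PAV05g0242091. PAV05g0242041 had 115, 112 and 95.8 CPM on October 17, 40.3, 41.4 and 36.4 CPM in December, 11.5, 16 and 13.6 CPM on January 3, 5.21, 3.47 and 4.63 CPM on January 15, 8.38, 4.42 and 8.12 CPM on February 12 and 0.739, 0.631 and 0.396 CPM on March 12. Of the 4, PAV05g0241961, PAV05g0242041 and PAV05g0242071 were called lower on March 12 than in December, and PAV05g0242091 had no count on March 12, against 0.509, 0.55 and 0.725 CPM in December. In all but PAV05g0241961 December was the date of the highest later mean. The sources used here, in which the GO terms were cut short, carry no sequence or function for these genes, so whether they are copies of each other was not examined.

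At the threshold of the choice, PAV01g0016311 was the last gene inside, with a ratio of 2.28, and PAV05g0258581 the first outside, with 2.27. On October 17 the inner gene had 38.2, 44.3 and 30.8 CPM and the outer 14.5, 12.3 and 11.3 CPM. On March 12 the libraries of PAV01g0016311 held 15.2, 16.2 and 17.5 CPM, and those of PAV05g0258581 held 6.15, 5.23 and 4.56 CPM. The ratio falls without a gap there, so the number of members is set by the choice of 200 and not by a break in the data.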

How the data were processed

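Raw read counts per gene of 18 libraries (6 dates, 3 replicates each) were used as deposited. Per the labels and methods, the authors' pipeline was Trimmomatic 0.36, then STAR against the genome of 'Regina', then HTSeq counts per gene from stranded mRNA libraries, with no normalization. HTSeq's default drops multiply aligned reads, which makes near-identical copies uncertain. Dates and replicates came from the sample labels, and p-values measure the spread between buds of 3 trees.

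CPM used library totals, which lay between 10095600 and 21023379. Genes averaging 3 counts or more and at 0 in no more than 75% of libraries were fitted with edgeR 4.0.16 in R 4.3.3 (TMM, quasi-likelihood, 1 mean per date, 12 residual degrees of freedom), adjusted by Benjamini-Hochberg. A standard error is the log2 fold change divided by the square root of F. Counting intervals are exact binomial (Clopper-Pearson) at 95% on counts summed per date, floors are 3 counts over a date, and both cover counting error only. A multiple of a floor divides the observed mean of 1 date by the floor of the other and leaves out the counting error of that mean. Alternatives were DESeq2 1.42.0, other scalings, filters and thresholds, a replicate block, the later dates alone, and leaving out each library. Tables and plots used Python 3.11.15 with matplotlib 3.10.9, pandas 2.3.3 and numpy 2.4.6, and the pipeline was tested on simulated data.

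Named members are those with an annotation, the 5 of highest ratio, the 3 of highest October mean, the 2 largest calls in each direction of each comparison, the last inside the threshold (with the first gene outside) and the 3 in which 1 October library weighed most, 34 in all. Others named are marked or given as neighbours or family genes. The members and the gene lists were chosen with earlier results of these data known. No RefSeq entry matched the identifiers, and sequences were not used here.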

Additional observations from a re-analysis of the deposited data

How the results depend on the processing

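Of the 321 recomputed counts, 317 stayed within 1.5 times the value reported. The exceptions concern the steps with the fewest calls. With the adjusted p alone and no fold threshold, January 15 against January 3 gave 44 members higher and 21 lower, and February 12 against January 15 gave 17 higher. Leaving out 1 library gave between 5 and 15 members lower on January 15 than on January 3, the highest without replicate 1 of January 15; the cause was not tested. No label says that a replicate number marks 1 tree across dates. The deviations of same-numbered libraries correlated across genes between -0.45 and 0.56 over 45 pairs (median 0.012), those of other numbers between -0.53 and 0.42, and not every library correlated best with its own number, so the pairing remains unknown. With the replicate block 64 members were lower on January 3 than in December, 70 lower on February 12 than on January 15 and 71 higher on March 12 than on February 12, with no count moved by over 1.5 times. Library totals alone moved the median log2 fold change of all genes on March 12 against December to 0.14, with 52 members higher and 62 lower. Of 2232 recomputed values for the 86 calls of named members, 59 fell short of a threshold and 0 changed direction. The 59 belonged to 18 of the 86 calls. Most fits without 1 library left out a date that was not in the comparison, and many of these members were named for large changes. The pooled number is therefore no measure of how firm a single call is. Another choice rule kept between 153 members (minimum of 10 CPM on October 17) and 197 (added constant of 0.1 CPM), with 193 for TMM-scaled CPM, and leaving out 1 library kept 191 to 199. Low later counts limit the members under about 1 CPM most.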
